A study of Danio rerio with 9 samples.

Results

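Aminoacyl-tRNA synthetases were followed in livers of zebrafish larvae given metronidazole. The members were all genes of the deposited count table whose symbol, in lower case, was a 1-letter amino acid code followed by ars with an optional ending, or eprs1. The pattern took 28 genes of 32520, and all 28 were among the 16766 genes that passed the filter on low counts. By the rule, the 11 whose symbol ends in 2 were taken as mitochondrial enzymes and the other 17 as cytosolic enzymes.

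The larvae were wild-type and were kept for 24 h in vehicle, in 1 mM metronidazole or in 10 mM metronidazole. Metronidazole is the prodrug used with bacterial nitroreductase for cell ablation, and no transgene or nitroreductase is named in these labels. The livers were dissected and poly A RNA was sequenced in 3 libraries per group, 9 in all. The larval age is not given in the labels, and neither is whether a library is 1 liver or a pool. The p-values therefore measure the spread between these libraries, which may be partly technical.

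Each aminoacyl-tRNA synthetase joins 1 amino acid to its tRNA, so that the ribosome can read the codon as that amino acid. Animal cells use separate sets of these enzymes in the cytosol and in mitochondria, both encoded in the nucleus, although some genes make enzyme for both compartments. In cells whose amino acid supply or endoplasmic reticulum is stressed, the transcription factor ATF4 is known from mammals to raise many cytosolic synthetase genes together with the asparagine synthetase gene asns. The enzymes fall into class I and class II by the fold of their active site. In vertebrates, several cytosolic enzymes sit together in a multi-synthetase complex held by scaffold proteins.

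The libraries held 30 to 41.3 M counts each. On the second principal component of all tested genes, 1 mM replicate 3 stood at -76.8, while the others lay between -5.99 and 26.6. By the column names, 10 mM replicate 3 came from lane 8 and the other libraries from lane 7. Of 14 hepatocyte markers, all were detected in every library, with a summed level of 176000 to 237000 CPM, the count scaled to the size of the library. The sums were 190000 to 200000 CPM in vehicle, 184000 to 237000 CPM at 1 mM and 176000 to 205000 CPM at 10 mM. Of the 14, 0 were called against vehicle and 1 was lower at 10 mM against 1 mM. In that comparison 4 had a log2 change above 0 and 10 below 0. Of 17 exocrine pancreas markers, 14 matched a gene and were detected in every library. They summed to 8940 to 19200 CPM in vehicle, 6690 to 19900 CPM at 1 mM and 10400 to 21700 CPM at 10 mM, and these ranges overlapped. None of these 14 passed the edgeR test in any comparison. Summed macrophage markers lay at 33 to 38.2 CPM in vehicle, 32 to 42.6 CPM at 1 mM and 43.1 to 51 CPM at 10 mM, with 1 of 5 called higher at 10 mM against each other group. At 10 mM against vehicle, 2 of these 5 had a log2 change above 0 and 3 below 0, with a median of -0.01. Summed biliary markers lay at 1460 to 1530, 1410 to 2300 and 1740 to 1830 CPM, with 0 of 7 called against vehicle and 1 higher and 1 lower at 10 mM against 1 mM. Of these 7, 3 had a log2 change above 0 and 4 below 0 at 10 mM against vehicle, with a median of -0.04. Summed endothelial markers lay at 147 to 154, 115 to 165 and 158 to 165 CPM, with 0 of 4 called. Of 6 tested intestine markers 1 was higher at 10 mM than in vehicle and 2 were higher than at 1 mM, while their sums overlapped at 2030 to 2840 CPM over all groups. Islet markers summed to 4.35 to 43.8 CPM in vehicle, 0.481 to 12 CPM at 1 mM and 3.68 to 41.7 CPM at 10 mM, with 1 of 6 called higher at 10 mM against 1 mM. Erythroid markers summed to 2430 CPM in 1 mM replicate 3 and to 1080 to 1490 CPM in the other libraries, with 1 of 7 called higher at 1 mM against vehicle and 1 lower at 10 mM against 1 mM. Neutrophil markers summed to 34.5 CPM in 1 mM replicate 2 and to 3.44 to 9.81 CPM in the other libraries, with 0 of 3 tested called. The part of these cells in the synthetase changes was not tested. In whole-tissue RNA, a change in the cells present and a change of RNA per cell cannot be told apart.

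In vehicle liver the cytosolic synthetase genes ranged from 7.32 to 133 CPM, with a median of 27.1 CPM. The mitochondrial ones ranged from 0.853 to 16 CPM, with a median of 4.12 CPM. CPM is not corrected for transcript length, so these ranges show the counting precision behind each gene and not an order of molecule numbers. The standard error of the log2 change at 10 mM was 0.12 to 0.19 for the cytosolic genes and 0.13 to 0.48 for the mitochondrial genes.

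The first comparison sets 10 mM against vehicle and asks which synthetase genes respond to the higher dose. Here 7 of the 28 synthetase genes rose and 1 fell. Among all tested genes 9.74% were called higher and 7.43% lower, against 25% and 3.57% of the synthetase genes. A call means an adjusted p under 0.05 in the edgeR quasi-likelihood test, with Benjamini-Hochberg adjustment over all tested genes. All 7 genes that rose were cytosolic, 41.2% of that class. Among the 5518 tested genes whose mean level lay in the range of the cytosolic members, 17.2% were called higher. Of the 11 mitochondrial genes 0 rose, where 8.66% of the 9812 tested genes in their range of levels were called higher. The 1 that fell was 9.09% of the 11, where 7.83% of the tested genes in that range were called lower. No mitochondrial gene rose with DESeq2 either, and 1 of the 11 had an unadjusted p under 0.05, the one that fell. The median log2 change was 0.33 for the cytosolic genes and 0.04 for the mitochondrial genes, against -0.03 for all tested genes. The difference between the classes was not tested.

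**Figure D1:**
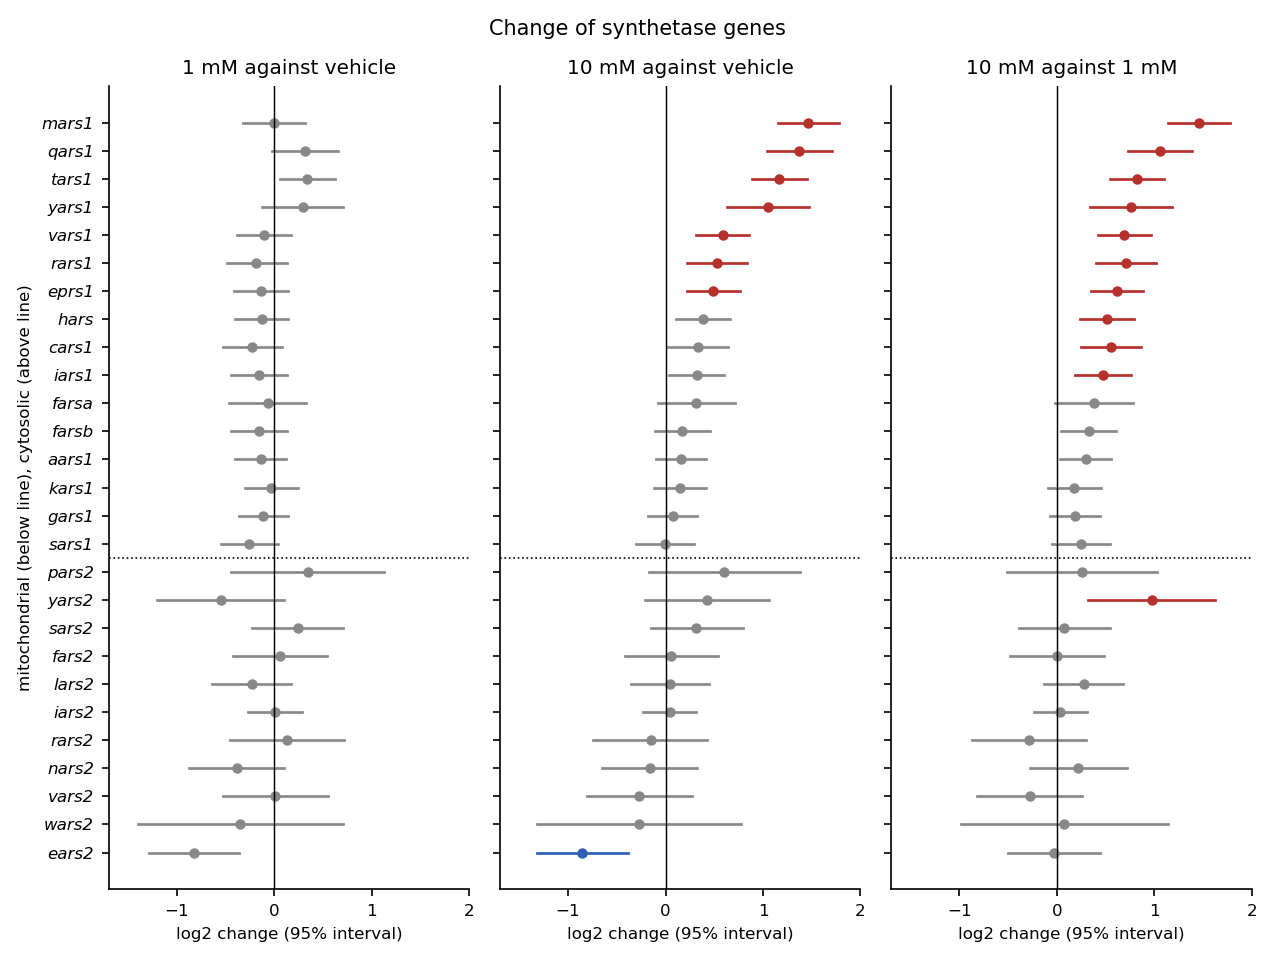
Log2 change of the synthetase genes named in the text (points) with its 95% interval (lines) from the edgeR fit, in the 3 comparisons, with cytosolic genes above the dotted line and mitochondrial genes below it. Red marks genes called higher, blue genes called lower and grey genes not called. At 10 mM against vehicle, 7 of 17 cytosolic genes were called higher and 1 of 11 mitochondrial genes lower. Of tested genes in the cytosolic range of levels 17.2% were called higher, and of those in the mitochondrial range 7.83% lower.

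The largest rise was that of mars1 (ENSDARG00000034396), the cytosolic methionine enzyme. Its level was 12.8, 11.6 and 10.7 CPM in the vehicle libraries, 10.7, 13.9 and 10.5 CPM at 1 mM, and 34.6, 29.4 and 32.6 CPM at 10 mM. The 10 mM libraries stood clear of the other 6, which overlapped each other. The rise over vehicle was 2.75-fold (log2 1.46, SE 0.15, edgeR adjusted p = 4.08e-05). Of the 1633 genes called higher at 10 mM, 416 rose by more. At 1 mM the log2 change of mars1 was -0.00, with a 95% interval of -0.32 to 0.32.

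The glutamine enzyme gene qars1 (ENSDARG00000010316) had 14.9, 18.8 and 15.6 CPM in vehicle, 17.1, 21.1 and 23.1 CPM at 1 mM, and 44.5, 36.3 and 46.6 CPM at 10 mM. The 10 mM values did not overlap those of either other group, and the 1 mM values overlapped those of vehicle. The rise at 10 mM over vehicle was 2.59-fold (log2 1.37, SE 0.15, edgeR adjusted p = 8.8e-05).

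The threonine enzyme gene tars1 (ENSDARG00000013250) had 12.7, 13.5 and 12 CPM in vehicle, 14, 16.6 and 17.7 CPM at 1 mM, and 27.3, 29 and 29.6 CPM at 10 mM. Here the 3 groups did not overlap, in the order of the dose. The rise at 10 mM was 2.25-fold (log2 1.17, SE 0.13, edgeR adjusted p = 7.15e-05). At 1 mM the log2 change was 0.34 (SE 0.13), which was not called (edgeR adjusted p = 0.302).

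The tyrosine enzyme gene yars1 (ENSDARG00000035913) had 6, 7.39 and 8.57 CPM in vehicle, 6.75, 9.9 and 10.3 CPM at 1 mM, and 13.6, 14.5 and 17.3 CPM at 10 mM. Its vehicle and 1 mM values overlapped, and all 3 values at 10 mM were higher. The rise was 2.07-fold (log2 1.05, SE 0.19, edgeR adjusted p = 0.00252).

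The remaining 3 genes that rose at 10 mM changed less. The valine enzyme gene vars1 (ENSDARG00000044575) went from 13.4, 12.7 and 13.8 CPM in vehicle to 18.6, 20.7 and 20.7 CPM (log2 0.59, SE 0.13, edgeR adjusted p = 0.00664). The arginine enzyme gene rars1 (ENSDARG00000054530) went from 16.5, 19 and 21.3 CPM to 29.3, 25.3 and 27.4 CPM (log2 0.53, SE 0.14, edgeR adjusted p = 0.0216). The bifunctional glutamate and proline enzyme gene eprs1 (ENSDARG00000060494) went from 32, 33.7 and 33.9 CPM to 43.8, 45.4 and 50.6 CPM (log2 0.49, SE 0.13, edgeR adjusted p = 0.0174). In none of the 3 did the 10 mM and vehicle libraries overlap. At 1 mM they measured 11 to 13.3, 14.7 to 19.3 and 26.9 to 34.9 CPM, each range overlapping that of vehicle. The calls of mars1, qars1, tars1, yars1 and vars1 held under each of the 16 alternatives in which the fit changed. Those of rars1 and eprs1 depended on single libraries. Both calls needed vehicle replicates 1 and 2 and 10 mM replicate 3. That of rars1 also needed 10 mM replicate 1, with an adjusted p of 0.0618 to 0.108 when 1 of the 4 was missing. That of eprs1 also needed vehicle replicate 3, with an adjusted p of 0.0573 to 0.0779.

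**Figure D2:**
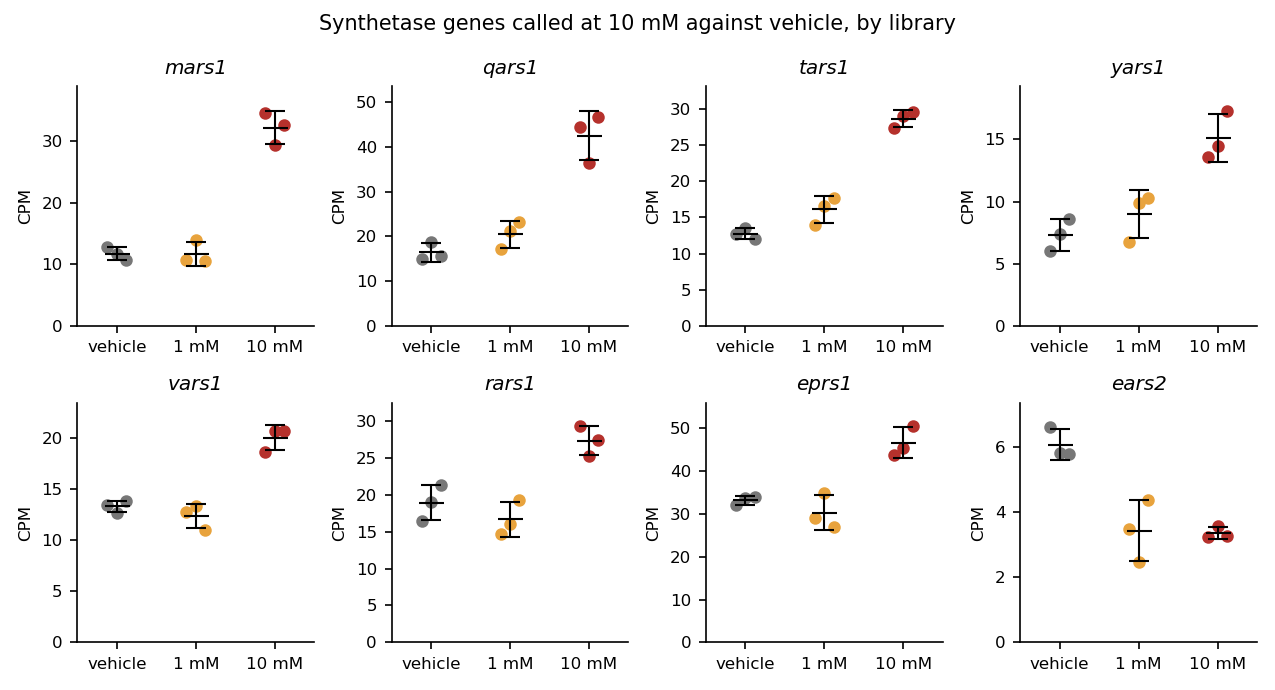
Levels in CPM of the 8 synthetase genes called at 10 mM against vehicle. Each point is 1 library, and the bars give the mean and SD of 3 libraries. In the 7 cytosolic genes every 10 mM point lies above every vehicle point, and in ears2 every 10 mM point lies below them.

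The other 10 cytosolic genes were not called at 10 mM against vehicle. The nearest to the threshold was the histidine enzyme gene hars (log2 0.39, SE 0.13, edgeR adjusted p = 0.0523), which 6 alternatives called (0.0168 to 0.0465). The isoleucine enzyme gene iars1 changed by 0.32 (95% interval 0.04 to 0.60) and the cysteine enzyme gene cars1 by 0.33 (0.03 to 0.64). For farsa and farsb, the subunits of the phenylalanine enzyme, the changes were 0.31 (-0.08 to 0.71) and 0.17 (-0.11 to 0.46). The intervals held 0 for some of the most highly counted genes: aars1 for alanine (-0.10 to 0.42), kars1 for lysine (-0.12 to 0.42), gars1 for glycine (-0.18 to 0.32) and sars1 for serine (-0.30 to 0.29). The upper ends of these 4 intervals lay below the lower ends for mars1 (1.15), qars1 (1.04), tars1 (0.89) and yars1 (0.63). For aars1 and kars1 all 10 mM libraries still lay above all vehicle libraries. This was so for 13 of the 17 cytosolic genes, where the levels of 40.6% of all tested genes did not overlap, in either direction. In humans, GARS1 and KARS1 make enzyme for the cytosol and for mitochondria, and a single hars gene is reported to do so in zebrafish. With these 3 genes set aside, 7 of 14 cytosolic genes rose and the median log2 change of the 14 was 0.41. This was 50% of them, where 17.2% of the tested genes in the range of levels of all 17 cytosolic genes were called higher.

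**Figure D3:**
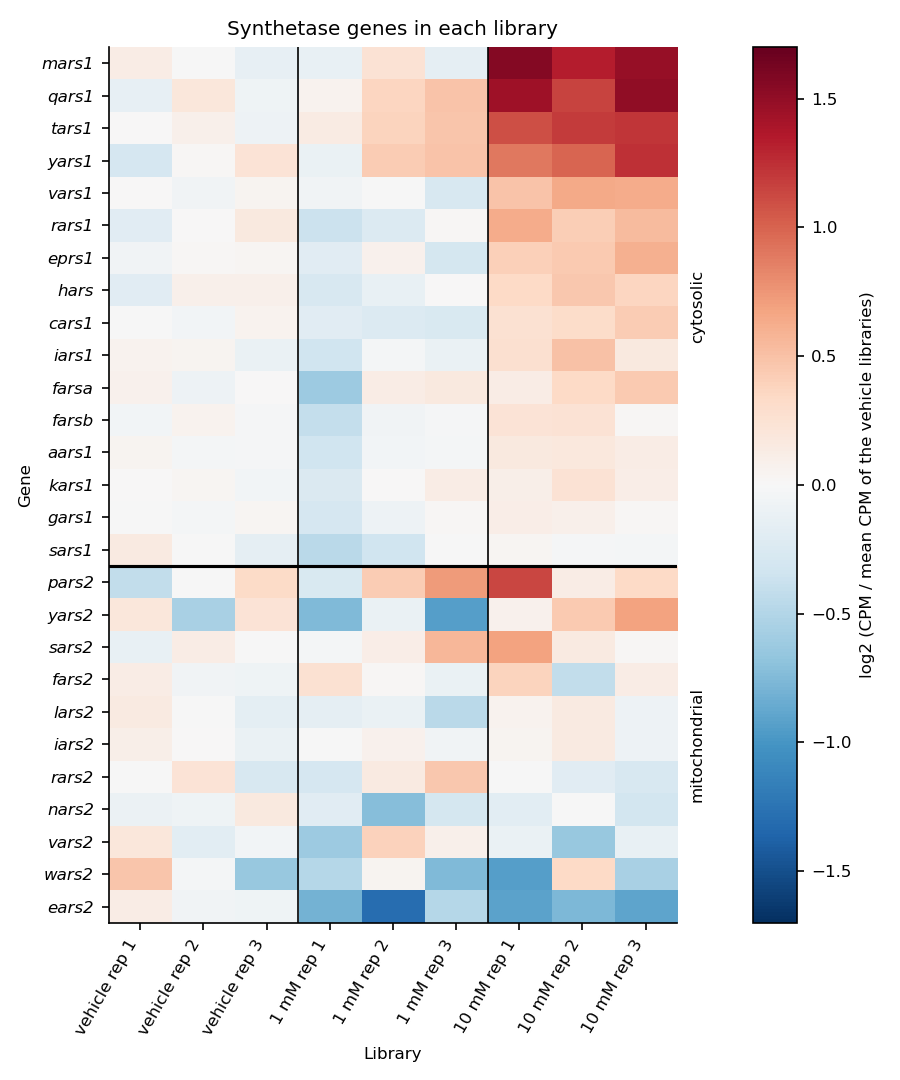
Level of the synthetase genes named in the text (rows) in each of the 9 libraries (columns), as log2 of its CPM over the mean of the vehicle libraries, with cytosolic genes above the thick line and mitochondrial genes below it. Rows are sorted within a class by the log2 change at 10 mM. The top rows are dark red in the 3 libraries at 10 mM only, and ears2 in the last row is blue in the 6 metronidazole libraries.

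Among the mitochondrial genes 1 fell at 10 mM, a share of 9.09% near the 7.83% of tested genes at their levels called lower. This was the glutamate enzyme gene ears2 (ENSDARG00000103099). It measured 6.6, 5.8 and 5.78 CPM in vehicle, 3.47, 2.46 and 4.35 CPM at 1 mM, and 3.23, 3.58 and 3.25 CPM at 10 mM. All 6 metronidazole libraries lay below all 3 vehicle libraries, and the doses overlapped each other. Against vehicle the log2 change was -0.85 at 10 mM (SE 0.21, edgeR adjusted p = 0.0153) and -0.82 at 1 mM (SE 0.21, edgeR adjusted p = 0.107, not called). Both comparisons share the vehicle libraries. Between the doses the log2 change was -0.03, with a 95% interval of -0.50 to 0.44. The call at 10 mM was lost when the first vehicle library, or 10 mM library number 1 or 3, was missing (adjusted p 0.0545 to 0.065). At 1 mM it was reached with DESeq2 and without 1 mM replicate 3 (0.0223 to 0.033).

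The other 10 mitochondrial genes were not called at 10 mM against vehicle. The isoleucine enzyme gene iars2, the most highly counted of them, measured 14.8 to 17.2 CPM in vehicle and 15.1 to 17.7 CPM at 10 mM, and its log2 change was 0.04 (95% interval -0.23 to 0.31). For the leucine enzyme gene lars2 it was 0.05 (-0.35 to 0.45) and for the phenylalanine enzyme gene fars2 0.06 (-0.42 to 0.54). For the remaining genes the intervals were -0.17 to 1.38 for pars2 (proline), -0.15 to 0.79 for sars2 (serine), -0.21 to 1.06 for yars2 (tyrosine) and -0.65 to 0.32 for nars2 (asparagine). They were -0.81 to 0.27 for vars2 (valine), -0.74 to 0.43 for rars2 (arginine) and -1.32 to 0.77 for wars2 (tryptophan). A doubling, log2 1, lies inside the intervals of pars2 and yars2, so that a rise of this size could not be told from no change at their depth.

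The lower dose was compared with vehicle in the same way. At 1 mM 0 of the 28 synthetase genes passed the edgeR test, where 0.889% of all tested genes were called higher and 0.0954% lower. At an unadjusted p under 0.05 there were 2, tars1 and ears2, and the DESeq2 test called 1 lower, ears2. The median log2 change was -0.13 for the cytosolic genes and 0.00 for the mitochondrial genes, against 0.01 for all tested genes. Of the 17 cytosolic genes 14 had a log2 change below 0. In 1 mM replicate 1 the cytosolic genes summed to 585 CPM, against 697 and 722 CPM in the other 1 mM libraries and 703 to 720 CPM in vehicle.

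At 10 mM against 1 mM, which compares the doses, 11 of the 28 synthetase genes were higher at 10 mM and 0 lower. This was 39.3% of them, where 9.39% of all tested genes were called higher and 9.41% lower. The 11 were 10 cytosolic genes and the mitochondrial yars2. This was 58.8% of the cytosolic genes, where 17.2% of the tested genes in their range of levels were called higher. For the mitochondrial genes it was 9.09%, near the 8.07% in their range of levels. All 17 cytosolic genes had a log2 change above 0, with a median of 0.52, and the mitochondrial median was 0.08. This comparison shares the 10 mM libraries with the one against vehicle. For mars1 the change was 1.46 (SE 0.15, edgeR adjusted p = 6.17e-05), for qars1 1.06 (SE 0.15, adjusted p = 0.000532) and for tars1 0.83 (SE 0.13, adjusted p = 0.000787). It was 0.76 for yars1, 0.71 for rars1, 0.69 for vars1 and 0.62 for eprs1, all called.

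The 3 further cytosolic genes called between the doses were hars, cars1 and iars1. The level of hars was 22.5, 24.8 and 27.1 CPM at 1 mM and 34.1, 37.2 and 34.9 CPM at 10 mM (log2 0.52, SE 0.13, edgeR adjusted p = 0.013). That of cars1 was 6.9, 6.74 and 6.6 CPM at 1 mM and 9.43, 9.77 and 10.6 CPM at 10 mM (log2 0.56, SE 0.14, edgeR adjusted p = 0.0151). That of iars1 was 38.5, 47.5 and 45.2 CPM at 1 mM and 58.9, 68.9 and 54.6 CPM at 10 mM (log2 0.48, SE 0.13, edgeR adjusted p = 0.024). In each of them all 10 mM libraries lay above all 1 mM libraries. Between these groups the levels of 33.7% of all tested genes did not overlap, in either direction. The 1 mM means of hars, cars1 and iars1 also lay below those of vehicle, though none was called in that comparison. The means were 24.8 CPM at 1 mM against 27.1 CPM in vehicle for hars and 6.75 against 7.88 CPM for cars1. For iars1 they were 43.7 against 48.6 CPM. The call of iars1 was lost with only the 6 libraries compared and when the first library of either dose or the second of 10 mM was missing (adjusted p 0.0609 to 0.0772). Those of cars1 and yars1 were lost without 10 mM replicate 3 (0.0599 and 0.0699). The gene yars2 had 1.56, 2.43 and 1.36 CPM at 1 mM and 2.76, 3.58 and 4.22 CPM at 10 mM (log2 0.97, SE 0.30, edgeR adjusted p = 0.0396). Its vehicle values, 2.98, 1.8 and 3.09 CPM, overlapped both groups. The yars2 call was lost in 8 of 15 alternatives (adjusted p 0.054 to 0.135). Among these were the fits that left out library 1 or 3 of vehicle or of 1 mM, or library 2 or 3 of 10 mM.

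Summed over each class, the cytosolic genes measured 714 ± 9.29 CPM in vehicle, 668 ± 73 CPM at 1 mM and 871 ± 10 CPM at 10 mM (SD, n = 3 each). The mitochondrial genes summed to 52.1 ± 2.73, 48.9 ± 3.09 and 51.4 ± 3.31 CPM. Within a library, the cytosolic sum was 13.1, 14.1 and 14 times the mitochondrial sum in vehicle, 12.9, 13.7 and 14.3 times at 1 mM, and 15.8, 17.5 and 17.6 times at 10 mM. The ratio was thus higher in all 3 libraries at 10 mM than in the other 6, which overlapped. The ratio weighs the most highly counted genes most and is a description, with no test.

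**Figure D4:**
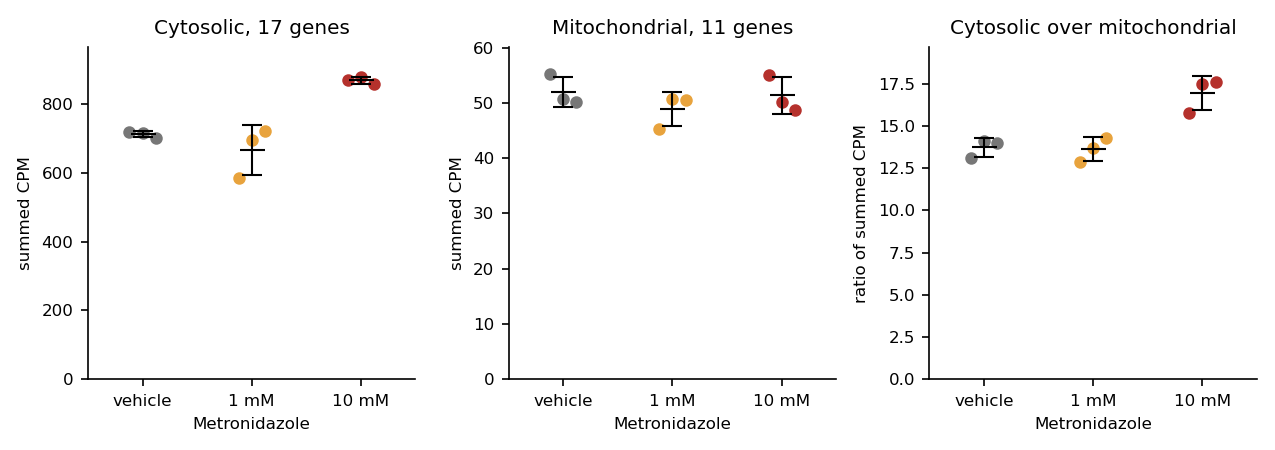
Summed CPM of the 17 cytosolic and of the 11 mitochondrial synthetase genes, and the ratio of these sums, in each library. Points are libraries, and bars give the mean and SD of 3 libraries. The cytosolic sum and the ratio are higher in all 3 libraries at 10 mM, and the mitochondrial sums of the 3 groups overlap.

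The same could be followed amino acid by amino acid, where the table holds a cytosolic and a mitochondrial gene for it. There were 9 such pairs over 8 amino acids, with eprs1 and fars2 in 2 pairs each. At 10 mM against vehicle the log2 ratio of the cytosolic to the mitochondrial gene was higher in 7 pairs and lower in 2, with differences from -0.29 to 1.34. In 4 pairs the libraries of both groups did not overlap, and the ratio was higher at 10 mM in all 4. For comparison, the levels of 40.6% of all tested genes did not overlap between these groups, in either direction. The share of pairs, 4 of 9, is near this. The 40.6% is for levels of single genes, and no such share was computed for ratios of gene pairs. At 1 mM against vehicle the ratio was higher in 2 pairs and lower in 7, and did not overlap for glutamate, where it was higher by 0.72, and for serine, where the difference was -0.48. Between these groups the levels of 17.7% of all tested genes did not overlap, again a share for single genes. For glutamate, the log2 ratio of eprs1 to ears2 was 2.46 ± 0.16 in vehicle, 3.18 ± 0.60 at 1 mM and 3.80 ± 0.15 at 10 mM. For valine, that of vars1 to vars2 was 1.17 ± 0.17, 1.1 ± 0.54 and 2.04 ± 0.36. For arginine, that of rars1 to rars2 was 3.22 ± 0.37, 2.92 ± 0.19 and 3.90 ± 0.10. For isoleucine, that of iars1 to iars2 was 1.61 ± 0.05, 1.44 ± 0.15 and 1.88 ± 0.07. The serine pair, sars1 to sars2, was lower at 10 mM, 2.87 ± 0.31 against 3.16 ± 0.24 in vehicle, and these overlapped. These differences between pairs were not tested.

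The cytosolic genes were also read by enzyme class. Of the 7 cytosolic class I genes (mars1, qars1, yars1, vars1, rars1, iars1 and cars1), 5 rose at 10 mM against vehicle and 7 were higher than at 1 mM. Of the 9 cytosolic class II genes 1 rose over vehicle, tars1, and 2 were higher than at 1 mM, tars1 and hars. The shares were 71.4% and 100% for class I, and 11.1% and 22.2% for class II. Of the tested genes in the cytosolic range of levels, 17.2% were called higher in each comparison. The median log2 change against vehicle was 0.59 for class I and 0.16 for class II. The remaining gene, eprs1, holds an enzyme of each class. Among the mitochondrial genes the medians were -0.15 for the 7 of class I and 0.19 for the 4 of class II. This split was made with the values known and covers only genes that the pattern took. The difference between the classes was not tested.

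The genes of the multi-synthetase complex ranged from no call to the largest rise. Of its 7 enzymes among the members, 4 rose at 10 mM against vehicle (mars1, qars1, rars1 and eprs1) and 3 were not called, among them iars1 and kars1. The log2 changes of those named ran from 0.15 to 1.46. Of the 10 cytosolic genes outside the complex, 3 rose (tars1, yars1 and vars1). The shares that rose were 57.1% in the complex and 30% outside it. Of the tested genes in the cytosolic range of levels, 17.2% were called higher. Of 4 listed scaffold genes 2 were tested, aimp1a and aimp2, and neither was called. The level of aimp2 was 77.5, 69.7 and 71.1 CPM in vehicle and 75.7, 82 and 67.3 CPM at 10 mM, a log2 change of 0.04 with a 95% interval of -0.29 to 0.37. For aimp1a the change was -0.00 (-0.44 to 0.44).

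**Figure D5:**
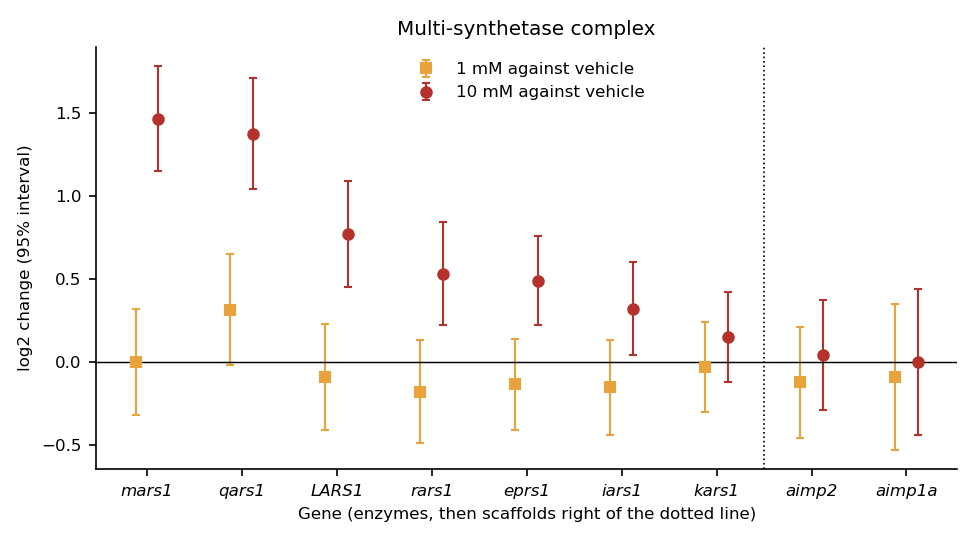
Log2 change against vehicle, with 95% intervals, of genes of the multi-synthetase complex at 1 mM (squares) and at 10 mM (circles), both against the same 3 vehicle libraries. LARS1, a leucine enzyme gene that the pattern does not take, is included. Enzymes stand left of the dotted line in the order of their change at 10 mM and scaffolds right of it. The 10 mM changes run from 1.46 in mars1 to 0.15 in kars1, and the scaffold changes lie at 0.04 and -0.00.

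The pattern is case sensitive and left out 9 genes whose symbol names a synthetase, 6 written in capitals in the deposited table and 3 without a symbol there that a table of Ensembl names calls cars2, lars1a and tars3. Of these 9, 2 rose at 10 mM against vehicle and 1 fell, 22.2% and 11.1% of them, where 9.74% and 7.43% of all tested genes did. LARS1 (ENSDARG00000019280), the cytosolic leucine enzyme and a further member of the complex, had 10.8, 10.7 and 9.91 CPM in vehicle and 15.6, 18 and 19.9 CPM at 10 mM (log2 0.77, SE 0.15, edgeR adjusted p = 0.00308). The second leucine enzyme gene, lars1a (ENSDARG00000090988), rose from 2.44 to 4.42 CPM on average (log2 0.86, SE 0.25, edgeR adjusted p = 0.0347), a call that needed each of the 6 libraries compared (0.0611 to 0.139 with 1 of them missing). The mitochondrial cysteine enzyme gene cars2 (ENSDARG00000078546) fell from 4.55 to 2.78 CPM (log2 -0.71, SE 0.21, edgeR adjusted p = 0.034). That call was lost in 6 of 15 alternatives (0.0506 to 0.128), namely with no count filter and when the first or second vehicle, the second 1 mM, or 10 mM library number 1 or 3 was missing. Among the cytosolic genes of the 9, LARS1 and lars1a were also called higher at 10 mM against 1 mM. By the edgeR test WARS1, NARS1 and tars3 were called in no comparison. With the 9 added, 9 of 22 cytosolic genes rose and 0 fell, and 0 of 15 mitochondrial genes rose and 2 fell.

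Genes around the synthetases were read in lists of related function. Their counts stand beside the 9.74% of all tested genes called higher and the 7.43% called lower at 10 mM against vehicle. The lists were chosen with earlier results of these data known, so their shares are a description. Of 15 listed genes of the response to uncharged tRNA 12 were tested, and 7 rose at 10 mM and 0 fell, with a median log2 change of 0.59. The 7 were 58.3% of the 12 tested. They were asns, the asparagine synthetase gene, with 7.23, 9 and 5.78 CPM in vehicle and 15.1, 17.4 and 17.5 CPM at 10 mM (log2 1.18, SE 0.17), atf4a (0.56, SE 0.17), which encodes ATF4, its partner genes cebpg (0.63, SE 0.13) and cebpb (1.27, SE 0.16), and ddit4 (4.40, SE 0.49), trib3 (1.86, SE 0.43) and sesn2 (0.97, SE 0.26). Their edgeR adjusted p ranged from 8.29e-05 to 0.0373. The call of atf4a was lost in 7 of 16 alternatives (adjusted p 0.0507 to 0.137). These were the replicate block and the removal of a vehicle library, of 1 mM replicate 2, or of the first or second 10 mM replicate. That of trib3 was lost without vehicle replicate 2 (0.0534), and that of sesn2 when replicate 1 or 3 of either group was missing (0.0594 to 0.104). The others tested, atf4b (0.26), ddit3 (0.31), eif2s1a (0.31), eif2s1b (-0.10) and impact (-0.04), were not called. Not tested were eif2ak4 and gcn1, listed for the sensing of uncharged tRNA, which matched no single gene, and chac1, which the count filter removed. The tested part of the list therefore holds mostly genes listed for the transcriptional arm of the response. Charging of tRNA was not measured, and whether uncharged tRNA had a part in these changes was not tested. At 1 mM 0 of the 12 passed, where 0.984% of all tested genes were called, and 0 of the 12 had an unadjusted p under 0.05.

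Of 48 listed genes of tRNA processing, modification and export 43 were tested, and 8 rose at 10 mM and 0 fell (median 0.22). The share called higher was 18.6%. Among the 8 were elac2 (log2 0.74, SE 0.14), which trims the ends of tRNA precursors, elp2 (0.98, SE 0.21) of the Elongator complex that modifies tRNA, and rpp30 (1.71, SE 0.39) of RNase P. The count was 3 without 10 mM replicate 1, 4 without vehicle replicate 1 or 3, and 5 with the stricter filter, which left rpp30 untested. Of 28 listed genes of RNA polymerase III and its factors, 19 were tested, and 5 rose and 1 fell (median 0.27), which is 26.3% and 5.26%. This polymerase makes tRNA and other small RNA, and not every listed gene serves tRNA alone. Higher were polr3e (0.88, SE 0.15) and gtf3aa (1.21, SE 0.23). Lower was maf1b (-0.77, SE 0.13), a gene of the repressor of this polymerase. It measured 15 ± 0.821 CPM against 25.6 ± 2.81 CPM in vehicle (SD, n = 3 each). Another gene of the same repressor, not named here, was not called. It measured 14.7 ± 1.27 CPM at 10 mM against 18 ± 3.42 CPM in vehicle (log2 -0.30, SE 0.15). Of the genes in this list, 2 to 3 rose when a vehicle library or 10 mM library number 1 or 3 was left out. With the replicate block or the stricter filter 3 rose, and that filter left gtf3aa untested. The count that fell was 1 to 2 over all alternatives.

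Of 14 listed genes of mitochondrial translation outside the synthetases 12 were tested, and 2 rose at 10 mM and 0 fell (median 0.30), which is 16.7% called higher in a list where 1 gene is 8.33%. They were tufm, the mitochondrial elongation factor that delivers charged tRNA, from 21.8 ± 1.41 to 38.4 ± 2.00 CPM (log2 0.82, SE 0.13, edgeR adjusted p = 0.000941), and gfm1 (0.72, SE 0.15), which moves the mitochondrial ribosome along. Without 1 mM replicate 1 or 10 mM replicate 2, or with only the 6 libraries compared, 3 rose. Of 15 listed cytosolic elongation factor genes 12 were tested, and 0 rose and 1 fell (median -0.07), and 8.33% called lower is near the share of all tested genes. The 1 was eef1a1a, a gene of the factor that carries charged tRNA to the cytosolic ribosome, from 29.0 ± 3.87 to 7.65 ± 1.27 CPM (log2 -1.92, SE 0.15, edgeR adjusted p = 1.27e-05). At 1 mM it measured 28.4 ± 1.34 CPM, a log2 change of -0.03. Another gene of the same factor, not named here, was counted far more highly. It measured 9670 ± 760 CPM in vehicle and 9440 ± 1200 CPM at 10 mM (log2 -0.03, SE 0.18, not called). Close paralogs of eef1a1a may share reads with it. At 1 mM against vehicle the edgeR test called 0 genes of these last 4 lists, and DESeq2 called 0. At this dose edgeR called 0.984% of all tested genes, so lists of this size would hold few calls at that share.

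Of the 28 members, 7 overlap another gene in the RefSeq annotation of assembly GRCz12tu, among them eprs1, yars2, sars1 and farsb. The strand setting of the counting is not given in the sources used here, so reads of an overlapping neighbour may be included in these counts. Reads that LARS1 and lars1a, or tars1 and tars3, may share could not be separated.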

How the data were processed

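Poly A RNA of larval liver was sequenced in 9 libraries, 3 per group, grouped by the treatment in the labels. Per the submitters' processing notes, the authors used HISAT2 and featureCounts with genome build GRCz11. How strand and multi-mapping reads were handled, and with which versions and annotation, is not given in the sources used here. Values, as the authors deposited them, are unnormalized counts per Ensembl gene. Even numbers made up 75.2 to 82.9% of the low counts (1 to 20) of a library, as counting each mate of a pair would give.

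Genes passed filterByExpr of edgeR (version 4.0.16, R 4.3.3; minimum count 10, minimum total 15), which left 16766. Libraries were scaled by TMM. All 9 libraries entered 1 fit with 3 group means, and each pair of groups was compared by the two-sided quasi-likelihood test with Benjamini-Hochberg adjustment over all tested genes and a threshold of 0.05. The standard error is the log2 change over the square root of F, and 95% intervals use the degrees of freedom of that test. Levels are CPM on TMM-scaled library sizes. The pipeline was tested on simulated data.

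The members, the gene lists and the split by enzyme class were chosen with earlier results of these data known. Every member may be named, but 1 is not reported here on its own and is in counts, medians and sums only. Of the lists on the complex scaffold and on uncharged tRNA all tested members were named, and of the others up to 3 with the smallest p at 10 mM. Alternatives were DESeq2 (version 1.42.0) size factors, the DESeq2 test, no count filter, a stricter filter (5 CPM or more in 3 libraries), fits restricted to the 6 libraries compared, a replicate block, leaving out the mitochondrially encoded and the 20 most abundant genes, leaving out each library in turn, and leaving genes for both compartments out. Adding the 9 synthetase genes that the pattern misses was chosen after seeing the data. Protein, promoter and motif features named in the plan were not analysed here.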

Additional observations from a re-analysis of the deposited data

How the results depend on the processing

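For the fits of this section the share of all tested genes called is not given here. The counts below therefore show how far the calls of members depend on the fit, and not how members compare with other genes. At 10 mM against vehicle, 5 to 8 members rose when 1 library was left out (5 without vehicle replicate 1 or 2 or 10 mM replicate 3), and 0 to 1 fell. The median log2 change of all members, 0.24, ranged from 0.16 to 0.25 with 1 library left out and was 0.28 with the stricter filter, where fewer genes were tested. It was 0.31 without the genes for both compartments and 0.31 with the 9 genes outside the pattern, where 2 fell. At 1 mM against vehicle 0 members rose under every alternative run, 1 fell with the DESeq2 test, and 0 to 1 fell with 1 library left out. At 10 mM against 1 mM 8 to 13 members were higher with 1 library left out, the median was 0.22 to 0.41, and with the 9 genes added 1 was lower. With those genes the mean ratio of cytosolic to mitochondrial sums was 11.9 in vehicle, 11.8 at 1 mM and 15 at 10 mM. The mitochondrial median at 10 mM against vehicle became -0.03 without 10 mM replicate 1 or vehicle replicate 3. With the stricter filter it was -0.14, but of the mitochondrial genes that filter kept only ears2, iars2, sars2 and vars2. That median is therefore not one of the whole class. Between the doses, aars1, farsb and sars1 were called without 1 mM replicate 3 (adjusted p 0.0261 to 0.0385). No member with a call changed direction under any alternative.

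Same-numbered libraries of different groups did not deviate together (correlations from -0.11 to 0.06 over all tested genes). No effect shared by the replicate numbers was thus seen, but 3 libraries per group cannot show that there is none. With the replicate block, 7 members rose and 1 fell at 10 mM against vehicle, with a median of 0.23, and 10 were higher at 10 mM than at 1 mM. Depth limits the mitochondrial genes most, with standard errors up to 0.48.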
